A study of Mus musculus with 12 samples.

Results

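The 10 genes described here, Tfam, Tfb1m, Tfb2m, Polrmt, Polg, Polg2, Nrf1, Gabpa, Ssbp1 and Lrpprc, are nuclear genes that copy, package and transcribe mitochondrial DNA (mtDNA), stabilise its transcripts or switch on the genes that do so. They were chosen by symbol, with earlier results of these data known, and each matched 1 of the 43686 rows of the count table. RNA was taken from the ventricular wall of 6 control mice homozygous for a floxed Sdhaf4 allele and without Cre (Sdhaf4fl/fl littermates, WT) and of 6 Sdhaf4fl/fl mice that carried Ckmm-Cre (Sdhaf4Ckmm, KO). All 12 mice thus had the floxed alleles, and the WT mice were no control for Cre itself. The Ckmm promoter is the muscle creatine kinase promoter, active in cardiac and skeletal muscle, so that the other cells of the ventricle were not targeted. The sample labels name the mutants as Sdhaf4-/- without the Cre, the strain as C57BL/6 and the age as 2 months after birth. The main text of the study gives a younger age for these mice. Its reporting summary states that mice for molecular and omics work were male, and the older of the ages it gives is close to that of the labels. Sdhaf4 encodes an assembly factor for succinate dehydrogenase, complex II of the respiratory chain.

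The mitochondrial genome encodes a few subunits of the respiratory chain with the ribosomal and transfer RNAs needed to make them, and every protein that maintains it is imported from the cytosol. POLRMT transcribes it together with TFAM, which also coats the molecule, and TFB2M, which opens the promoter. DNA polymerase gamma, made of the catalytic chain POLG and the accessory chain POLG2, copies it behind the helicase Twinkle while SSBP1 covers the displaced strand. LRPPRC binds the mitochondrial mRNAs with its partner SLIRP and keeps them stable, and NRF1 and GABPA are transcription factors at the promoters of many nuclear genes for mitochondrial proteins. Mice without Tfam, Polrmt or Lrpprc in heart muscle are known to develop cardiomyopathy.

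The promoters of the genes were searched for the letters to which the last pair of factors is known to bind. In RefSeq promoters of GRCm38.p6, each running from 250 bases before to 50 after a start site, the GABP/ETS motif CCGGAAG was present on either strand in 8.86% of 32851 promoters, and the NRF1 motif (GCGCA, any 1 base, then GCGC), also on either strand, in 4.6%. All 10 genes matched a promoter (11 promoters, since Nrf1 had 2). The GABP/ETS letters were present for 6 genes (Tfam, Polrmt, Polg, Polg2, Gabpa and Ssbp1). The NRF1 letters were present for Polrmt alone, where 2 matches that overlapped each other began at and just before the start site, and no NRF1 match overlapped a GABP/ETS match. The 120 bases before the start site are printed below, 5′ to 3′ on the strand of the gene, for 4 genes with a GABP/ETS match, in capitals, and for Tfb1m, the gene with the largest change, which had no match. All but that of Ssbp1 lie on the minus strand of the assembly. Their regions are chr10:71238045-71238164 for Tfam, chr7:79466274-79466393 for Polg, chr11:106779538-106779657 for Polg2, chr6:40471348-40471467 for Ssbp1 and chr17:3557756-3557875 for Tfb1m.
Tfam: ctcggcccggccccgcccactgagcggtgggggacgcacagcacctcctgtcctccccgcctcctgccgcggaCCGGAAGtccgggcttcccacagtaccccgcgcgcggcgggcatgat
Polg: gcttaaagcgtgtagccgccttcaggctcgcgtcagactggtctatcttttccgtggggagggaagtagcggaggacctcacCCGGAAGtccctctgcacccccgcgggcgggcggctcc
Polg2: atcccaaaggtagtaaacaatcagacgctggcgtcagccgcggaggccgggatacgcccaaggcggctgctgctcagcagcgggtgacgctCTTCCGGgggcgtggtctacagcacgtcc
Ssbp1: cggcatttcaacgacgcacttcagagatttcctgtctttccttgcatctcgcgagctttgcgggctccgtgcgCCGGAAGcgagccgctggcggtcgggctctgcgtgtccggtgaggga
Tfb1m: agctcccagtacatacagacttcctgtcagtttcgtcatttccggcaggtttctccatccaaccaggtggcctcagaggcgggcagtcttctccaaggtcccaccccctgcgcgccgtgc
With the start site counted as 0, the capitals begin at -47 in Tfam, -38 in Polg, -29 in Polg2 and -47 in Ssbp1. A match is a run of letters and was not shown to be bound in these hearts. Only these exact letters were searched, so a gene without a match, such as Tfb1m, is not shown to lack a site.

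The targeted gene was checked first. Sdhaf4 was counted at 25.2 ± 5.80 CPM (counts scaled to a common library total with TMM factors, mean ± SD, n = 6) in WT and 2.40 ± 0.170 CPM (n = 6) in KO, a log2 fold change of -3.39 (SE 0.16), and no KO library reached the lowest WT library. Library totals were 23747014 to 27159228 counts in WT and 26542930 to 31393393 in KO. Of the 17155 rows that passed the filter on low counts, 51.1% differed between the genotypes at an adjusted p under 0.05 (edgeR quasi-likelihood test, Benjamini-Hochberg over all rows), 25.6% being higher and 25.5% lower in KO. The labelled tissue was checked by marker genes, none of which was at 0 in every library. Of 10 cardiomyocyte markers, 1 was higher and 6 were lower in KO, and their summed level was 60504 to 67294 CPM in WT and 46042 to 65061 CPM in KO. The top of the KO range was KO replicate 3, the only KO library within the WT range, and the log2 ratio of the group means was -0.32 with it and -0.39 without it. Of 9 fibroblast markers, 8 were higher and none lower, with a summed level of 1468 to 1723 CPM in WT and 2622 to 4921 CPM in KO. Of 8 endothelial markers, 5 were higher and 1 was lower (1600 to 1774 CPM and 1786 to 2184 CPM). Smooth muscle and pericyte markers (2 higher, 2 lower of 7; 1272 to 1496 CPM and 1334 to 1782 CPM) and macrophage markers (1 higher, 2 lower of 8; 253 to 353 CPM and 252 to 367 CPM) were mixed. None of the 4 lymphocyte markers tested (of 6; 1.22 to 3.32 CPM and 1.16 to 3.88 CPM) or of the 2 red blood cell genes found (of 5; 293 to 1012 CPM and 615 to 1226 CPM) passed.

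All 10 genes passed the filter on low counts. None was higher in KO and 8 were lower (Tfb1m, Polg2, Lrpprc, Ssbp1, Polg, Tfb2m, Gabpa and Polrmt), beside 25.6% and 25.5% of all rows tested. Tfam and Nrf1 did not pass. The KO libraries lay wholly below the WT libraries for 6 genes, beside 15.2% of all rows. The median log2 fold change of the 10 genes was -0.39, beside 0.002 over all rows. Since the genes were chosen with earlier results of these data known, these values describe them and are no independent test. At the stricter threshold of the study's methods (adjusted p under 0.005 and a log2 fold change over 1 in either direction), which 10.2% of all rows passed, Tfb1m alone passed, and Polg2 joined it when KO replicate 5 was left out (-1.02). In bulk tissue, fewer cells of a type and less RNA per cell cannot be told apart, and the part of the lower cardiomyocyte and higher fibroblast markers in these changes was not tested.

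**Figure D1:**
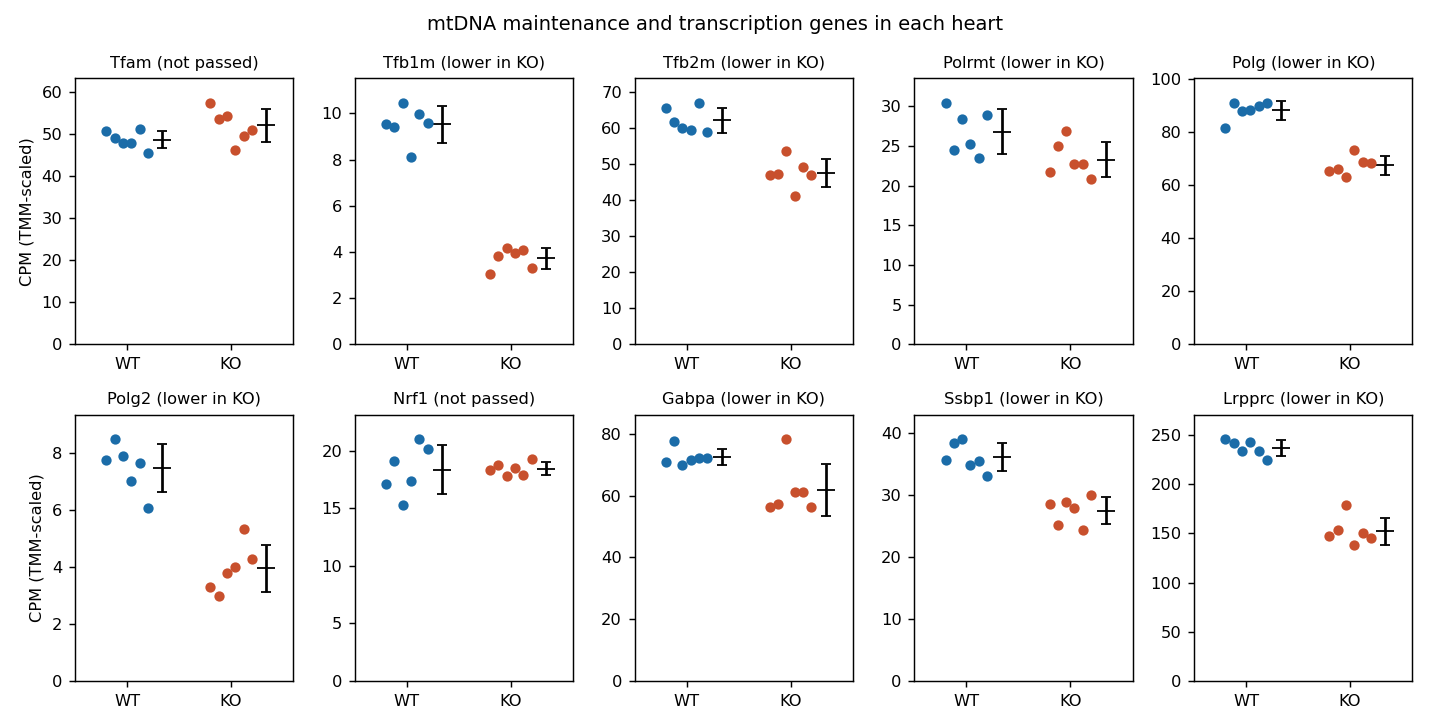
CPM (TMM-scaled) of each of the 10 genes in the 6 WT (blue) and 6 KO (red) libraries, with a bar at mean ± SD beside each group and every axis starting at 0. For Tfb1m, Tfb2m, Polg, Polg2, Ssbp1 and Lrpprc every KO point lies below every WT point, and for Gabpa 1 KO point, at 78.2 CPM, lies above all WT points.

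Tfam and Polrmt, the core of the transcription machinery, differed in their call. Tfam (chromosome 10, 73744069 to 73756794, coordinates here and below on the C57BL/6NJ assembly of the table's identifiers) was at 45.5 to 51.1 CPM in WT (median 48.4) and 46.2 to 57.4 CPM in KO (median 52.2). The groups overlapped, although 3 KO libraries were above every WT library. The log2 fold change was 0.10 (SE 0.06, 95% interval -0.02 to 0.21) and did not pass (adjusted p = 0.158). Polrmt, the RNA polymerase itself (chromosome 10, 83053180 to 83063727), was at 23.5 to 30.5 CPM in WT (median 26.8) and 20.8 to 26.9 CPM in KO (median 22.7). The groups overlapped, with 4 KO libraries below every WT library. Its log2 fold change of -0.20 (SE 0.08) passed with the least margin of the 8 genes (adjusted p = 0.0401). It did not hold in 7 of 12 fits made without 1 library (WT replicates 1, 3 and 6 and KO replicates 1, 4, 5 and 6), where the adjusted p ran up to 0.0873.

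The paralogs Tfb1m and Tfb2m fell by unequal amounts. Both proteins descend from ribosomal RNA methyltransferases. TFB1M still methylates the RNA of the small mitochondrial ribosomal subunit, while TFB2M works as the initiation factor. Tfb1m (chromosome 17, 641842 to 681151) was at 8.11 to 10.5 CPM in WT (median 9.57) and 3.05 to 4.17 CPM in KO (median 3.89). The gap between the groups was wider than the spread within either. The mean fell by 60.9%, the log2 fold change was -1.35 (SE 0.11) and the adjusted p 2.79e-08. These values rest on 91 to 266 reads a library. Tfb2m (chromosome 1, 191903515 to 191935512) was at 58.8 to 67.0 CPM in WT (median 60.8) and 41.2 to 53.5 CPM in KO (median 47.1), again with no overlap. Its mean fell by 23.5% (log2 fold change -0.39, SE 0.06, adjusted p = 3.73e-05). The table describes 2 unannotated loci on chromosome 12 (48682862 to 48683568) as Tfb2m, at 69 to 111 and 415 to 676 reads a library, and with their reads added to the 1198 to 1706 of the gene the log2 fold change was -0.40.

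The difference between the paralogs was tested as a ratio of counts within each library, which needs no scaling between libraries. The log2 ratio of Tfb2m to Tfb1m was 2.71 ± 0.12 (SD, n = 6) in WT and 3.68 ± 0.20 (n = 6) in KO. The 2 groups of ratios did not overlap. The difference of 0.97 (SE 0.10) corresponded to a ratio 1.96 times as high in KO (exact permutation of the genotypes, two-sided, p = 0.00216, which is the lowest p that 6 against 6 can give, and 0.00649 after Benjamini-Hochberg adjustment over the 6 ratios tested).

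The replication genes Polg, Polg2 and Ssbp1 were each lower in KO with no overlap. Polg (chromosome 7, 84528771 to 84550124) was at 81.4 to 91.1 CPM in WT (median 89.0) and 62.9 to 73.2 CPM in KO (median 67.2), a log2 fold change of -0.39 (SE 0.05, adjusted p = 2.97e-06). Polg2 (chromosome 11, 113502231 to 113515313), the accessory chain that lets the polymerase stay on its template, was at 6.08 to 8.49 CPM in WT (median 7.71) and 2.999 to 5.35 CPM in KO (median 3.90). Its mean fell by 47.2% (log2 fold change -0.92, SE 0.14, adjusted p = 3.06e-05), on 80 to 235 reads a library. Ssbp1 (chromosome 6, 39895632 to 39908999), the single-stranded DNA binding protein, was at 33.1 to 39.0 CPM in WT (median 35.6) and 24.4 to 30.1 CPM in KO (median 28.2), a log2 fold change of -0.39 (SE 0.06, adjusted p = 6.76e-05).

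The 2 chains of the polymerase also changed unequally. The log2 ratio of Polg to Polg2 was 3.56 ± 0.19 in WT and 4.12 ± 0.27 in KO (n = 6 each), a difference of 0.55 (SE 0.14, exact permutation p = 0.00433, adjusted 0.00649), although the groups of ratios overlapped. Ssbp1 was set beside Twnk, which encodes the helicase Twinkle and was itself lower in KO (log2 fold change -0.39, adjusted p = 0.000107). Their log2 ratio was -0.05 ± 0.14 in WT and -0.04 ± 0.15 in KO (n = 6 each), and the difference of 0.01 (SE 0.08) did not pass (exact permutation p = 0.944).

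Lrpprc (chromosome 17, 91003871 to 91089499) was the most abundant of the 10 transcripts, and its WT libraries had the smallest relative spread (coefficient of variation 3.36%). It was at 224 to 246 CPM in WT (median 238) and 138 to 179 CPM in KO (median 149). The groups did not overlap, and the KO library nearest to WT was KO replicate 3. The mean fell by 35.8%, with a log2 fold change of -0.64 (SE 0.06, adjusted p = 9.19e-08) that was -0.70 without KO replicate 3. Slirp, the partner, was lower by less (-0.28, adjusted p = 0.00968). The log2 ratio of Lrpprc to Slirp went from 2.46 ± 0.15 in WT to 2.10 ± 0.17 in KO (n = 6 each), a difference of -0.36 (SE 0.09, exact permutation p = 0.00433, adjusted 0.00649) with some overlap.

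Of the transcription factors, Nrf1 did not pass and Gabpa was lower. Nrf1 (chromosome 6, 28700585 to 28815631) was at 15.3 to 21.0 CPM in WT (median 18.2) and 17.8 to 19.3 CPM in KO (median 18.4). Every KO library lay within the WT range, and the log2 fold change was 0.01 (SE 0.08, 95% interval -0.15 to 0.17, adjusted p = 0.943). Gabpa (chromosome 16, 88191574 to 88221651), the DNA-binding chain of GABP, was at 70.0 to 77.6 CPM in WT (median 71.9) and 56.2 to 78.2 CPM in KO (median 59.1). The groups overlapped through KO replicate 3 alone, which was above every WT library while the other 5 were below every WT library. The log2 fold change was -0.23 (SE 0.07, adjusted p = 0.0118) and -0.32 without that library.

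Gabpb1, which encodes a chain that GABPA pairs with to activate transcription, was higher in KO (log2 fold change 0.20, adjusted p = 0.0158). The log2 ratio of Gabpa to Gabpb1 was accordingly 2.19 ± 0.08 in WT and 1.75 ± 0.10 in KO (n = 6 each). The ratios did not overlap, KO replicate 3 included, and differed by -0.44 (SE 0.05, exact permutation p = 0.00216, adjusted 0.00649). The log2 ratio of Polrmt to Tfam was -0.86 ± 0.18 in WT and -1.16 ± 0.16 in KO, a difference of -0.30 (SE 0.10, exact permutation p = 0.0152, adjusted 0.0182) with overlap.

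**Figure D2:**
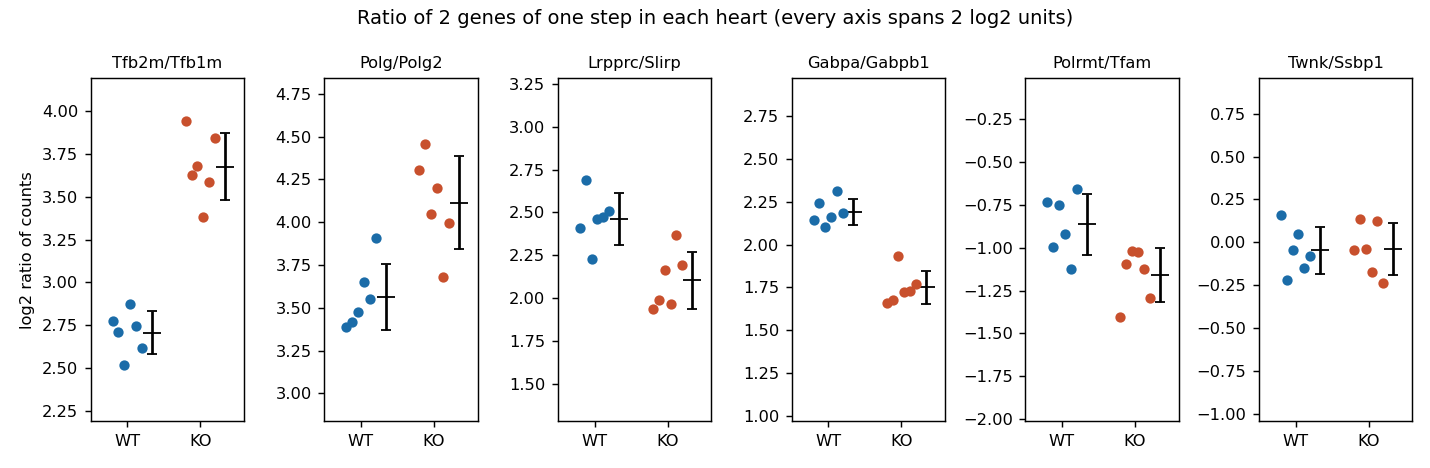
log2 ratio of the counts of 2 genes in each of the 6 WT (blue) and 6 KO (red) libraries, with a bar at mean ± SD; every axis spans the same number of log2 units. The groups are apart for Tfb2m to Tfb1m and for Gabpa to Gabpb1, and cover the same range for Twnk to Ssbp1.

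**Figure D3:**
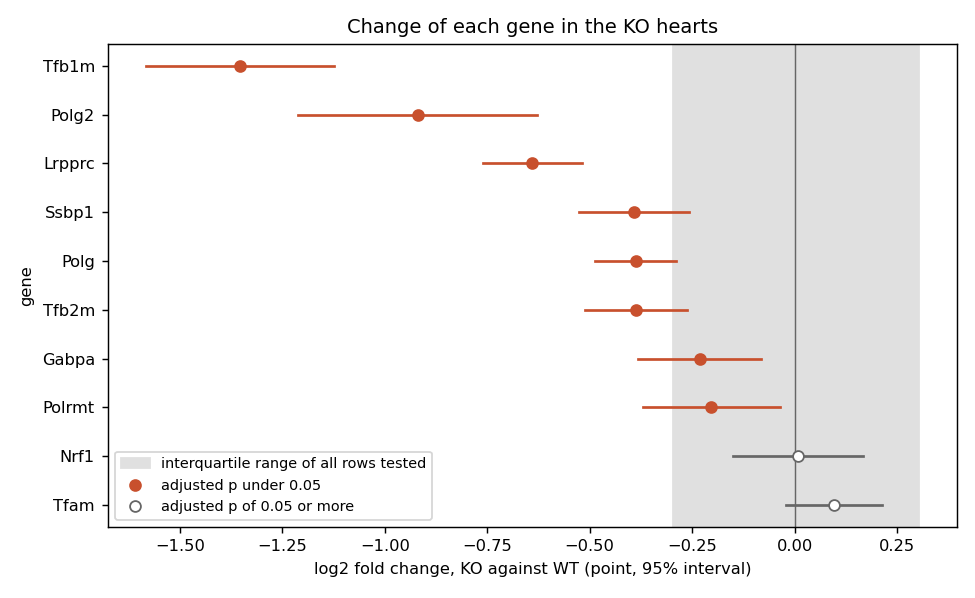
log2 fold change (x axis, KO against WT) of each gene with its 95% interval; filled red points passed at an adjusted p under 0.05, open points did not, and the grey band is the interquartile range of all rows tested, -0.30 to 0.30. Tfb1m, Polg2 and Lrpprc stand left of the band with their whole intervals (points from -1.35 to -0.64, intervals from -1.58 to -0.52), and Gabpa, Polrmt, Nrf1 and Tfam have their points inside it.

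Several of these genes share bases with a gene on the opposite strand. Whether the counting used strand is not given in the sources used here, and the part of reads from the shared bases was not tested. The 2 unannotated loci described as Tfb2m cover nearly the same bases on opposite strands and had unlike counts (69 to 111 and 415 to 676 reads a library). Tfb1m overlaps Tiam2 over 135 bases and Cldn20 over 660 (57 to 164 and 0 to 4 reads a library), Polg overlaps Fanci over 4034 bases (29 to 73 reads) and Polg2 overlaps Milr1 over 542 bases (26 to 52 reads). Gabpa shares 701 bases with Atp5j, a subunit gene of the ATP synthase with 10730 to 16674 reads a library against 1525 to 2363 for Gabpa. The value of Gabpa is the least certain in this respect.

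The levels of the 10 transcripts were compared per length, in FPKM as the authors computed it. In WT the order was Lrpprc (117.3 ± 3.90 FPKM), Tfb2m (66.8 ± 3.26), Polg (47.6 ± 2.45), Gabpa (40.5 ± 2.06), Tfam (35.1 ± 1.23), Ssbp1 (21.5 ± 1.32), Polrmt (13.997 ± 1.55), Nrf1 (9.87 ± 1.21), Tfb1m (7.17 ± 0.595) and Polg2 (4.85 ± 0.532), all mean ± SD with n = 6. Of neighbours in this order, the WT ranges of Polg and Gabpa overlapped and those of every other pair were apart. In KO the order kept Lrpprc (75.3 ± 5.43) and Tfb2m (51.1 ± 3.35) at the top and Tfb1m (2.81 ± 0.344) and Polg2 (2.56 ± 0.543) at the bottom. Tfam, at 37.6 ± 2.73 FPKM, moved from the place below Gabpa to the place above Polg (36.5 ± 2.62) and Gabpa (34.5 ± 4.14). The KO ranges of these genes overlapped, however (Tfam 34.4 to 42.2, Polg 32.7 to 40.8 and Gabpa 30.7 to 42.2 FPKM). The lengths behind these FPKM values are not the lengths listed in the table for 9 of the 10 genes, and by the listed lengths Polg came after Gabpa and Tfam, and Tfb1m before Polrmt and Nrf1.

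**Figure D4:**
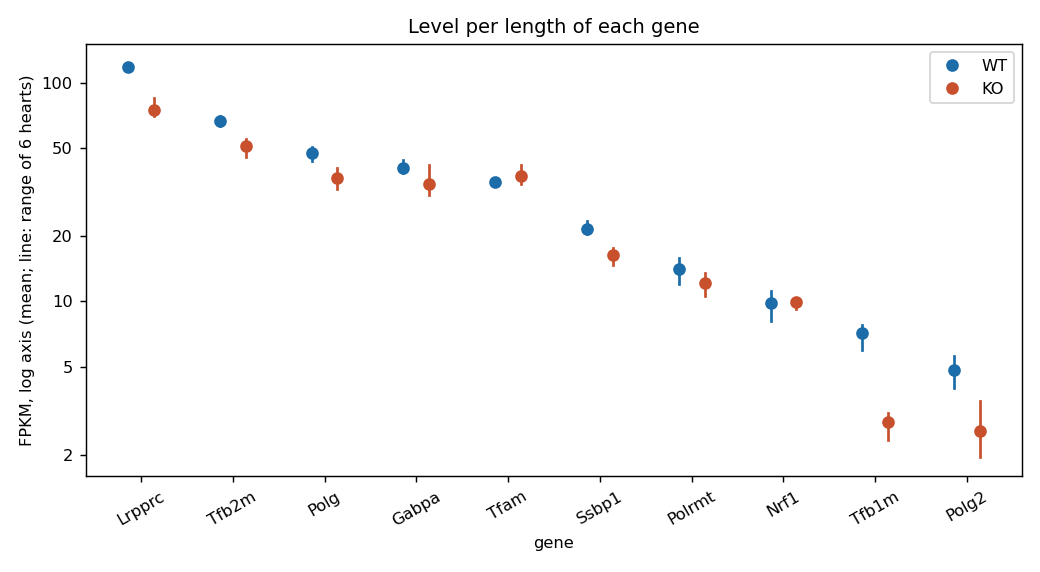
FPKM of each gene on a log axis in WT (blue) and KO (red), with points at the mean and lines from the lowest to the highest of the 6 libraries. Lrpprc is highest in both genotypes and Polg2 lowest, and the KO line of Tfb1m, around 2.81, is far below its WT line, around 7.17.

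Reads of 6 unannotated loci were also examined, picked only because the table describes them as mitochondrial. Whether all their reads come from transcripts of mtDNA was not tested. The libraries were made from poly-A RNA, and the annotated mitochondrially encoded genes were not analysed here. The share of counts on the 6 loci is therefore no measure of mtDNA transcription as a whole. These loci took 8.11% to 10.9% of the counts in WT (mean 9.80% ± 0.962) and 8.67% to 10.3% in KO (9.34% ± 0.593, n = 6 each). The KO range lay within the WT range, and the difference of -0.46 percentage points did not pass (two-sided exact permutation test, p = 0.335). Without WT replicate 6 it was -0.80 (exact permutation p = 0.0498). Without the locus with the most reads the share was 1.80% ± 0.134 in WT and 1.73% ± 0.166 in KO (exact permutation p = 0.431).

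The other genes of the pathway were read from 5 lists, counted as higher or lower at an adjusted p under 0.05 (25.6% and 25.5% of all rows). The lists, too, were chosen with earlier results of these data known. Of 16 genes for mtDNA replication and repair, 2 were higher, 6 lower and 8 did not pass (median log2 fold change -0.23). Top1mt, the mitochondrial topoisomerase (-1.20), Ung, which removes uracil from DNA (-0.91), and Lig3, the ligase of mtDNA (-0.40), were the lowest. Apex1 (0.29) and Poldip2 (0.14) were higher. Of 15 genes for the supply of nucleotides or known from mtDNA depletion, none was higher, 8 were lower and 7 did not pass (median -0.38). Sucla2 (-0.47) and Suclg1 (-0.50), which the paper lists as TCA cycle genes, were among the 8. The lowest were Nme4, a nucleoside diphosphate kinase of mitochondria that was at 5.91 ± 1.05 CPM in WT and 1.03 ± 0.332 CPM in KO (-2.51), Mpv17, mutated in a human mtDNA depletion syndrome (-0.99), and Slc25a33, a pyrimidine nucleotide carrier (-0.74).

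All 10 accessory factors of mitochondrial transcription and of the nucleoid that were tested passed, of 13 on the list, 2 higher and 8 lower (median -0.31). Lonp1, the matrix protease known to degrade TFAM, was at 190 ± 6.70 CPM in WT and 265 ± 21.5 CPM in KO (log2 fold change 0.48, adjusted p = 1.74e-06). Clpx, the unfoldase of the other matrix protease, was at 297 ± 13.0 CPM in WT and 169 ± 18.4 CPM in KO (-0.81, adjusted p = 2.58e-08). Both pairs of groups were apart. Mrpl12, a ribosomal protein that also binds POLRMT, was higher (0.32), while the prohibitin Phb2 (-0.34) and the termination factor family member Mterf2 (-0.34) were lower.

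Of 31 genes for mitochondrial RNA processing and stability found of 32, 8 were higher, 10 lower and 13 did not pass, and the median, -0.03, was near that of all rows. Higher were the pseudouridine synthase family member Trub2 (0.77), the tRNA-modifying enzyme Trit1 (0.67) and Taco1, the translational activator of a cytochrome oxidase subunit (0.49). Lower were Fastkd1 (-0.96), Hsd17b10 (-0.87) and Prorp (-0.60), of which the last 2 encode subunits of the enzyme that cuts tRNA 5′ ends from mitochondrial transcripts. Trmt10c, which encodes another subunit of this enzyme, did not pass (-0.10), and the groups overlapped for Prorp. Of 12 partners and regulators of NRF1 and GABPA found of 13, Hcfc1 (0.25) and Gabpb1 (0.20) were higher, Sp1 (-0.32) was lower and 9 did not pass (median 0.04).

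**Figure D5:**
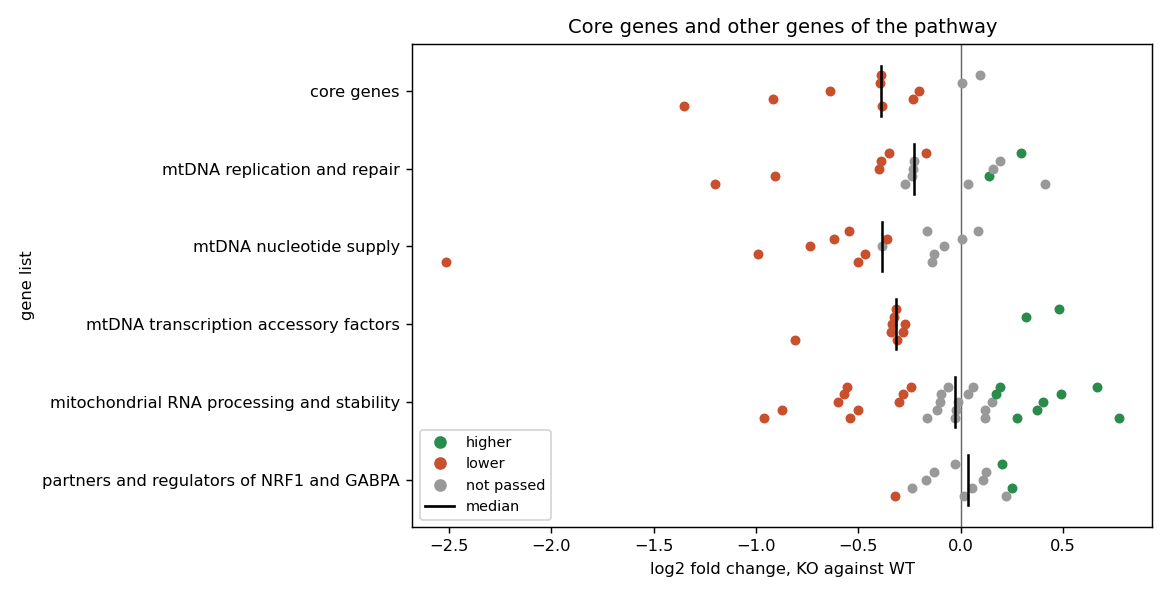
log2 fold change (x axis, KO against WT) of the 10 core genes and of each tested gene of the 5 other lists (y axis), coloured by call, with a black bar at the median of each list. The medians run from -0.39 for the core genes to 0.04 for the partners and regulators of NRF1 and GABPA, and the lowest point, at -2.51, is Nme4.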

How the data were processed

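Poly-A RNA of 12 ventricles (6 WT, 6 KO) was sequenced. The authors counted reads per gene with HTSeq and deposited raw counts and, per library, FPKM (counts scaled by a gene length and the library total). The labels' processing notes name HISAT2 2.0.5 and mm10, whereas the identifiers and coordinates are those of the C57BL/6NJ annotation. The authors' group means and their DESeq fold changes and p-values in the same table were not used. The gene lengths the authors listed were used only for an alternative level per kilobase.

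The members and lists were chosen with earlier results of these data known. The counts went into edgeR 4.0.16 under R 4.3.3 (rows kept by filterByExpr, TMM factors, robust quasi-likelihood test on genotype, Benjamini-Hochberg over the 17155 rows kept). The code was first run on simulated data in which far fewer rows differed than here, so that run does not gauge the error rate for these data. Standard errors and 95% intervals were derived from the F statistic of each row. Ratios of genes and the mitochondrial share were tested by two-sided exact permutation of the genotype labels. Each library is 1 sample of a group by its label. No pair of replicates was a repeat of another, and p-values weigh the genotype difference against the spread between these samples.

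Named were the 10 members, Sdhaf4, the genes of the ratios and, per list, up to 3 higher and 3 lower genes of largest change with a mean of at least 1 CPM. Trmt10c, Sucla2 and Suclg1 are named besides. Alternatives were scaling by upper quartile, by DESeq2 size factors or by library size only, no mitochondrial loci, other filters, a replicate block, DESeq2 1.42.0, limma-voom (limma 3.58.1) and each library left out. Adding the Tfb2m copies was chosen after seeing the data. Twnk and Prorp were matched by older symbols, and Mterf3 and Actn2 by the table's own annotation. Mterf1b, Nsun4, Trmt61b and Esrra matched no row used here, and Mterf1a did not pass the filter. Medians of library totals were 25476732 (WT) and 29399085 (KO) counts, and counts near 100 a library limit Tfb1m and Polg2 most. Promoters are from RefSeq (GRCm38.p6), an assembly other than that of the counts.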

Additional observations from a re-analysis of the deposited data

Results flagged for a closer look

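In 8 of 70 groups of 6 libraries examined 1 library lay far from the others by Dixon's test, where about 3.5 are due to chance at 1 in 20. Among the 10 genes, Gabpa was at 78.2 CPM in KO replicate 3 against 56.2 to 61.2 CPM in the other KO libraries, and at 77.6 CPM in WT replicate 2 against 70.0 to 72.2 CPM in the other WT libraries. Lrpprc was at 178.5 CPM in KO replicate 3 against 138 to 153 CPM in the other KO libraries. Polg was at 81.4 CPM in WT replicate 1 against 87.9 to 91.1 CPM. Of the genes named beside them, Gabpb1 was at 14.5 CPM in WT replicate 5 (others 15.9 to 16.4 CPM), Mpv17 at 41.6 CPM in the same library (others 34.6 to 37.0 CPM), Hcfc1 at 70.5 CPM in WT replicate 6 (others 60.7 to 64.0 CPM) and Sdhaf4 at 2.73 CPM in KO replicate 1 (others 2.25 to 2.41 CPM).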

How the results depend on the processing

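No member was higher and 7 or 8 were lower in KO under every alternative run, and Polrmt was the member whose call was lost (adjusted p 0.0107 to 0.0873 with 1 library left out). The numbers of the replicates do not pair the libraries: same-numbered libraries had correlations of -0.16 to 0.02, and 1 of 12 correlated best with its own number. A replicate block gave 4123 rows higher and 4110 lower against 4391 and 4376 without it, and for Polrmt -0.20 with an adjusted p of 0.0618. It changed no other call among the members or the counts of the lists. Nrf1, which did not pass in any fit, was at -0.0020 with upper quartile scaling and between -0.047 and 0.044 with 1 library left out (-0.02 without WT replicate 1, -0.047 without WT replicate 3, -0.01 without WT replicate 4 and -0.01 without KO replicate 6). Twnk to Ssbp1 ran from -0.027 to 0.049 and was below 0 without WT replicates 2 or 5 or KO replicates 2 or 5 (-0.03, -0.01, -0.03 and -0.03). The mitochondrial share ran from -0.80 to -0.24 percentage points, and passed without WT replicate 6. With 1 library left out, 1 to 2 members passed the study's threshold and 1 to 2 regulators were lower (2 also with upper quartile scaling). By the listed lengths, WT levels in CPM per kilobase were 54.0 for Lrpprc, 40.0 for Tfb2m, 14.5 for Gabpa, 11.7 for Tfam, 11.3 for Polg, 8.20 for Ssbp1, 6.26 for Polrmt, 4.54 for Nrf1 and 2.75 for Polg2, since the authors' FPKM used shorter lengths. Causes of the other changes were not tested.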
